A study of Nannochloropsis oceanica strain IMET1 with 15 samples.

Results

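This report describes 165 nuclear genes of the oleaginous microalga Nannochloropsis oceanica IMET1 whose transcript levels were lower in the knockout line M2 than in the wild type (WT) while they stayed near the WT level in 3 other lines. They were chosen from the level of each gene in 15 RNA-seq libraries. For each gene, L was computed as the log2 of the line mean plus 1 over the WT mean plus 1. A gene was taken if its WT mean was 10 or more, its L in M2 was -0.8 or lower, and its L in M1, M3 and M4 lay between -0.4 and 0.4. The 165 genes are 2.02% of the 8151 nuclear genes with a WT mean of 10 or more, out of 10493 genes in all.

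The libraries came from cultures of strain IMET1 under high light, with 3 replicates for each of 5 groups. WT carried no edit. M1 and M2 were NO08G00280-knockout lines, and M3 and M4 were NO06G02500-knockout lines, all made with CRISPR–Cas9 and zeocin selection. NO08G00280 was studied as a candidate methyltransferase for N6-methyladenine in DNA and NO06G02500 as a candidate demethylase for the same mark. Each line is 1 clone, so that an effect of the edited gene and any other difference of that clone cannot be told apart.

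N6-methyladenine is an adenine base of DNA that carries a methyl group, written by methyltransferases and removed by demethylases. Nannochloropsis is a stramenopile that stores triacylglycerol, and its cells must take up phosphate, sulfate and nitrogen, balance the redox load of strong light, and couple their growth to the day. Of the set, 35 genes carry a description. The functional lists used below place 1 in phosphate supply, 2 in sulfur supply, 4 in redox defence and 2 in transcription and clock. They place 5 in oxidoreductases and carbon metabolism, 3 in proton pumps and 3 in other transporters. Further described genes act elsewhere or have no known role. The names below are those of Arabidopsis matches listed with the study, in most cases without a tested function in this alga.

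The values are transcript abundances (TPM) scaled across libraries by the trimmed mean of M values (TMM), here called levels. Depth was judged from the ratio of coverage to FPKM, which lay between 4.69 and 6.17. The transcripts of the edited genes were not called lower in their own lines with limma (for NO08G00280 in M2 the log2 change was -0.15, adjusted p = 0.64). NO08G00280 had levels of 6.70 to 9.57 in WT, 5.94 to 11.0 in M1 and 6.74 to 7.64 in M2, and NO06G02500 had 55.3 to 58.8 in WT, 69.0 to 76.7 in M3 (called higher, limma adjusted p = 0.043) and 54.5 to 58.1 in M4. A level does not show a small edit in the coding sequence, so these values check no label. Genes of the organelles made up 0.0271% to 0.0318% of the M2 libraries, 0.0330% to 0.0476% of WT and 0.0600% to 0.0750% of M4, and the part of this in the results was not tested.

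M1 replicate 3 stood apart from the other M1 libraries in the 165 genes. It was the lowest of the 3 M1 libraries in 139 of them, beside 42.0% of the 8151 genes. In 81 of them it was at -0.4 or lower against the WT mean, beside 15.0% of the 8151, so that lower only in M2 holds for the means of the lines and not for this library. Its difference from the mean of the other M1 libraries had a median of -0.36 on the log2 scale over the 165 genes and -0.03 over the 8151 genes. Across the 8151 genes, that difference had a Pearson correlation of 0.263 and a Spearman correlation of 0.486 with L in M2. No library is shared between these measures, and the points share only the genes, which are not independent replicates. M3 replicate 1 was the lowest of the M3 libraries in 97 of the 165 genes, beside 36.9% of the 8151. Counts and medians that rest on M1 are therefore also given without M1 replicate 3.

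The first question was how much of the loss in M2 was found in no other line. Of the 8151 genes, 605 had an L of -0.8 or lower in M2, and the 165 genes are 27.3% of them. The other 440 genes lay outside the limits in at least 1 other line, 198 in exactly 1, 170 in 2 and 72 in all 3. In M1, the sister clone with the same target, 236 of the 440 genes were at -0.4 or lower and 19 at 0.4 or higher (172 and 37 without M1 replicate 3). In M3 the numbers were 249 and 10. In M4 they were 112 and 128, so that more of these genes were high than low there. With the opposite sign, 272 genes had an L of 0.8 or higher in M2, and 50 of them stayed within the limits elsewhere. The bars of genes by number of lines outside the limits show this division.

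**Figure D1:**
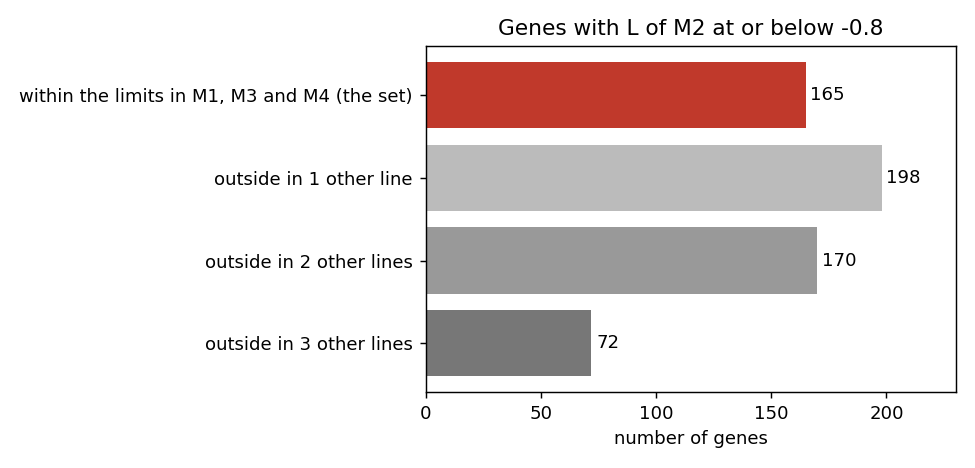
Number of genes (horizontal axis) among the 605 with an L of -0.8 or lower in M2, by how many of M1, M3 and M4 had an L outside -0.4 to 0.4. The 165 genes form the top bar, and 198, 170 and 72 genes were outside in 1, 2 and 3 other lines.

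L in M2 ranged from -3.77 to -0.80 over the 165 genes, with a median of -1.01. There were 4 genes at -2 or lower, 12 between -2 and -1.5, 70 between -1.5 and -1 and 79 above -1. In bulk cultures, fewer cells with a transcript and less of it per cell cannot be told apart. The M2 mean was 3.22% to 56.9% of the WT mean, with a median of 48.9%, and 93 genes were at 50% of WT or less. The rule fixed the sign and the least size of these values, which are given as a description. All 3 M2 levels were below all 3 WT levels in 153 of the 165 genes, beside 28.7% of the 8151 genes, and below all 12 other libraries in 126 genes, beside 11.9%. Of all 9440 genes tested with limma at an adjusted p under 0.05, 18.2% were called lower in M2, 136 of the 165 among them. The rule used the same contrast, so nothing is read from these counts.

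Members just inside the limit had an L in M2 of -0.80 (NO03G05460, NO02G00680 and NO11G00610) and -0.81 (NO13G02700 and NO24G00970). The nearest genes outside it had -0.80 (NO30G00650 and NO16G00710) and -0.79 (NO10G01780, NO18G01220 and NO09G03150). NO03G05460 had 78.7, 74.4 and 81.2 in WT and 45.1, 42.0 and 45.9 in M2, and NO30G00650, which was not taken, had 63.2, 60.7 and 55.3 in WT and 36.1, 30.6 and 35.3 in M2. The line between them is one of the rule, not of the data.

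The level of the set was similar in the 3 M2 libraries. Relative to the WT mean, the median over the 165 genes was -1.13, -1.07 and -0.94 in M2 replicates 1, 2 and 3. It was -0.02, 0.01 and -0.02 in WT, -0.01, -0.12 and -0.38 in M1, -0.30, -0.13 and -0.14 in M3, and 0.12, 0.07 and 0.15 in M4. The sum of their levels was 1.67% to 1.81% of the library in M2 and 3.36% to 3.56% in WT. It was 3.52%, 3.25% and 2.77% in M1, 2.91% to 3.10% in M3 and 3.70% to 3.77% in M4. All M2 libraries were below every other library, and M1 replicate 3, at 2.77%, was next.

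**Figure D2:**
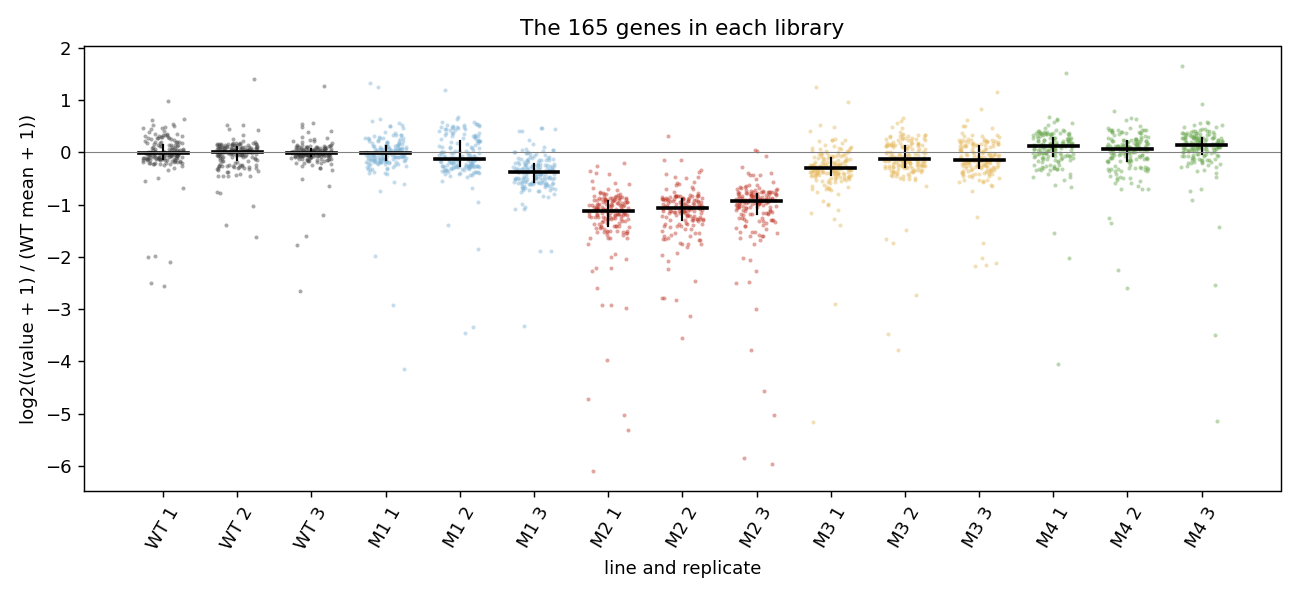
Log2 of the level plus 1 over the WT mean plus 1 (vertical axis) for each of the 165 genes (points) in each library (horizontal axis), with the median (thick bar) and the quartiles (thin bar). The M2 medians were -1.13, -1.07 and -0.94, and M1 replicate 3 had the lowest median of the other libraries, -0.38.

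To read the set in libraries that had no part in its choice, 1 library of a line and 1 WT library were left out together, the rule was applied to the other 13, and the left-out libraries were compared over the genes it then gave (97 to 236 genes). The median of the left-out M2 library against the left-out WT library was -1.003 to -0.954 for M2 replicate 1, -0.995 to -0.851 for replicate 2 and -0.78 to -0.72 for replicate 3, each over the 3 WT libraries. For M1 it was 0.01 to 0.10, -0.11 to -0.07 and -0.39 to -0.36 in replicates 1, 2 and 3. For M3 it was -0.34 to -0.26, -0.13 to -0.05 and -0.15 to -0.10, and for M4 it was above 0 in every pair, from 0.08 to 0.20. Over all genes with a WT mean of 10 or more the medians were between -0.02 and 0.01. M2 was lowest in each of its libraries. The other libraries of each line still chose the genes, so this shows only that cultures of the M2 clone were alike. Smaller lowerings were seen in M1 replicates 2 and 3 and in all M3 libraries. With M1 replicate 3 alone left out, the rule gave 165 genes, 149 of them shared with the main 165.

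The limits on M1, M3 and M4 left room for small shifts, and these were not evenly spread around 0. L was below 0 in 120 of the 165 genes in M1 and in 128 in M3, beside 51.1% and 49.9% of the 8151 genes. In M4 it was above 0 in 108 genes, while 53.7% of the 8151 were below 0. The medians of L were -0.18 in M1, -0.19 in M3 and 0.10 in M4. Without M1 replicate 3 the M1 median of the same 165 genes was -0.06, and 99 of them were below 0, beside 52.4% of the 8151. Among the 440 other genes low in M2 the medians had the same signs and were larger, at -0.43 in M1 (-0.30 without replicate 3), -0.44 in M3 and 0.17 in M4.

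M3 and M4, edited in the same gene, lay on different sides of WT in some of these genes. All 3 M4 levels were above all 3 WT levels in 41 of the 165 genes, beside 13.2% of the 8151, and all 3 M3 levels were below all WT levels in 58, beside 13.5%. M4 above and M3 below WT held at once in 21 of the 165 genes, beside 2.55% of the 8151. These 3 shares of the 165 were 24.8%, 35.2% and 12.7%. Among the 440 other genes low in M2 they were 32.3%, 39.3% and 16.1%, so the split was not particular to the set. The opposite pattern, M3 above and M4 below WT, was found in 0 of the 165 genes and 0 of the 440, beside 3.08% of the 8151. In M1 all 3 levels were below all WT levels in 37 genes, beside 12.2% (for replicates 1 and 2 alone also 37, beside 17.2%), and in M4 in 9, beside 16.9%. Of all tested genes, 1.13% were called lower in M1, 4 of the 165 among them. Without M1 replicate 3, 0.487% were called, with 0 of the 165 among them. At an unadjusted p under 0.05 with limma and with all libraries, 42 of the 165 were lower in M1, beside 10.5% of the 8151. Without M1 replicate 3, 18 of the 165 were, beside 680 of all 9439 tested genes. The shares for M3 and M4 were 0.339% and 3.69%, with 0 of the 165 in either at the adjusted p. At an unadjusted p under 0.05 with limma, 38 and 5 of the 165 were lower in M3 and M4, beside 11.4% and 13.4% of the 8151. The limits of the rule hold these counts down.

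The largest difference among the described genes was in phosphate transport. NO24G00190 (chromosome 24, 58688 to 61037 in the IMET1v2 genome, minus strand) is named phosphate transporter 2;1, a carrier that moves phosphate across a membrane. Its levels were 527, 621 and 540 in WT, 575, 447 and 465 in M1, 91.8, 80.3 and 138 in M2, 591, 495 and 543 in M3, and 613, 607 and 577 in M4. The 3 M2 levels were far below the other 12, which overlapped among the other groups. L was -2.44 in M2 and between -0.18 and 0.09 in the other lines.

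Both sulfate transporters of the set, which bring in the sulfur for cysteine, methionine and sulfolipids, had M2 means of 41.1% and 44.8% of the WT mean. NO11G01800 (sulfate transporter 3;4, chromosome 11) had 269, 344 and 306 in WT, 280, 236 and 185 in M1 and 118, 118 and 142 in M2. It had 255, 223 and 222 in M3 and 330, 394 and 416 in M4. The M2 levels were the lowest. The M1 levels of 236 and 185 and all M3 levels lay between those of M2 and WT, and M4 overlapped WT only in part. NO10G00770 (sulfate transporter 4.1, chromosome 10) had 210, 257 and 255 in WT and 98.9, 97.4 and 128 in M2, with L of -1.28 for the first gene and -1.15 for the second. NO10G00770 overlaps NO10G00760. Strand is not kept by the kit used, and where genes overlap the source of a read is uncertain.

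Other carriers of the set were 2 genes of the major facilitator superfamily and an ABC transporter. NO25G01750, of the major facilitator superfamily, which moves small solutes along gradients, had 169, 193 and 185 in WT and 80.2, 83.4 and 31.4 in M2. NO23G01540 of the same superfamily had 75.1, 91.6 and 77.0 in WT and 40.1, 36.5 and 41.4 in M2. NO25G01770, named multidrug resistance-associated protein, a family of ABC transporters that export conjugates with ATP, had 207, 200 and 187 in WT and 63.2, 74.3 and 85.9 in M2. It lies near NO25G01750, on the opposite strand of chromosome 25, and overlaps NO25G01760. In all 3 carriers every M2 level was below every other library.

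Proton pumps supply the gradient that many such carriers use. NO12G00380, named H(+)-ATPase 2 after the plasma membrane pump, had 387, 359 and 268 in WT, 364, 285 and 169 in M1, 146, 180 and 179 in M2, 272, 357 and 384 in M3, and 434, 345 and 433 in M4. M1 replicate 3 lay within the range of M2 in this gene, and L in M1 was -0.31. The subunits of the vacuolar pump were steadier. NO04G03350, a G subunit, had 409, 451 and 408 in WT and 190, 194 and 190 in M2. NO15G01190, a D subunit, had 382, 460 and 404 in WT and 206, 192 and 263 in M2. The M2 means of the 3 pump genes were 49.9%, 45.2% and 53.0% of the WT means.

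Redox genes of the set include some named after enzymes of the mitochondrion and the chloroplast. NO02G00290, named alternative oxidase 1A, the terminal oxidase that lets mitochondrial electrons bypass proton pumping, had 441, 526 and 460 in WT and 166, 156 and 158 in M2. It had 421, 445 and 334 in M1, 415, 394 and 323 in M3 and 516, 539 and 555 in M4, and L in M2 was -1.57. Its neighbour on the same strand of chromosome 2, NO02G00280, is named glyoxalase II 3. NO02G00280 had 488, 521 and 499 in WT and 185, 189 and 209 in M2. In both neighbours the M2 libraries were the lowest by a wide margin.

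NO10G02430, named stromal ascorbate peroxidase, which clears hydrogen peroxide in the chloroplast, had 334, 369 and 347 in WT and 144, 172 and 154 in M2. It had 371, 259 and 216 in M1 and 379, 418 and 403 in M4. The M1 libraries of this gene spread from above the WT range to below it. NO02G01640, named thioredoxin F2, which activates Calvin cycle enzymes in light, had 474, 555 and 476 in WT and 226, 253 and 285 in M2. L in M2 was -1.16 and -0.98 for these 2 genes of the chloroplast.

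**Figure D3:**
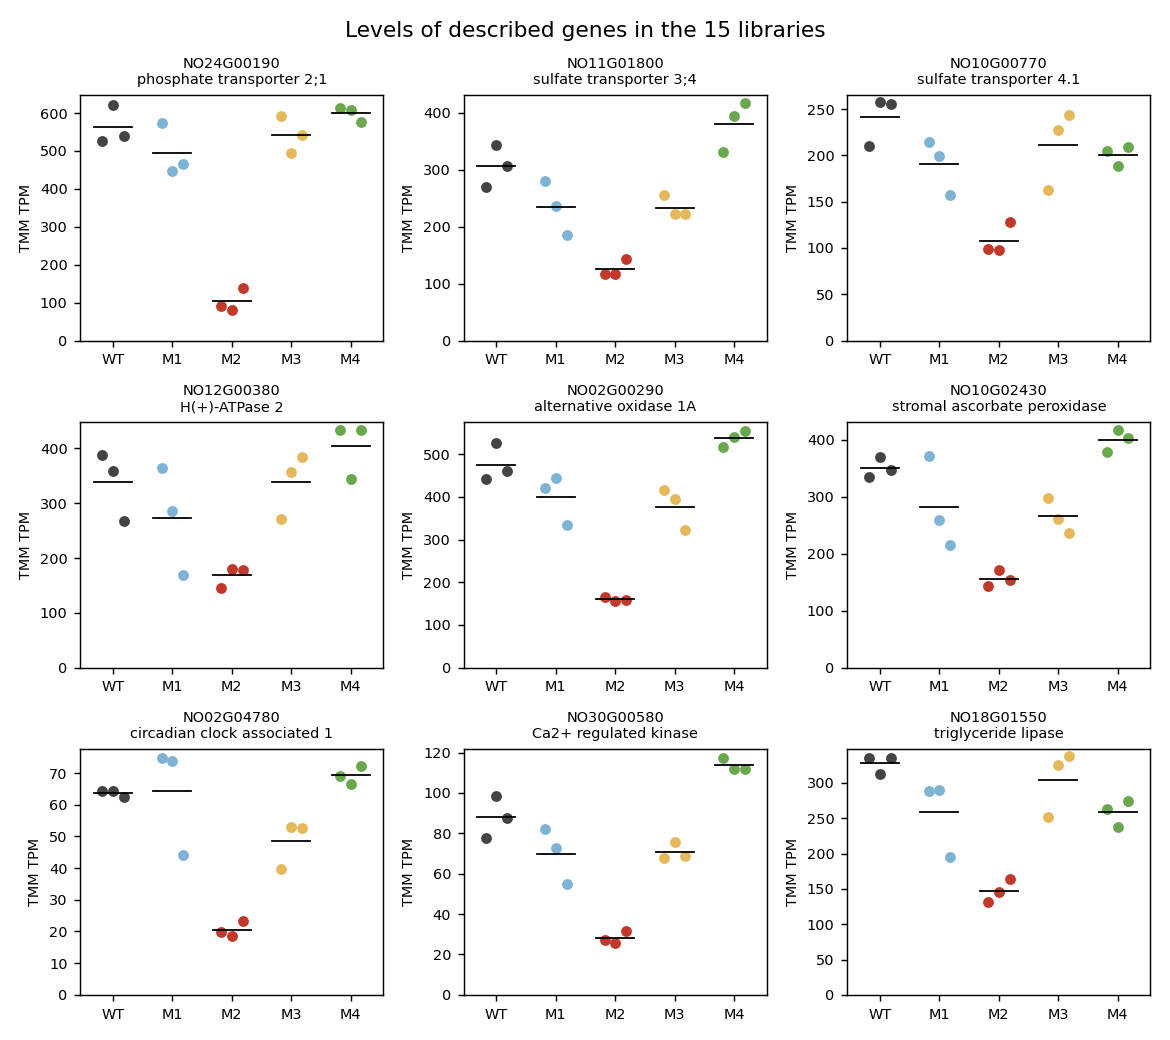
Levels (TMM-scaled TPM, vertical axes from 0) of 9 described genes in the 3 libraries (points) of each of the 5 groups, with the group mean (bar). The M2 levels lie below all other libraries in 8 of the 9 panels, and NO12G00380 is the exception, with M1 replicate 3 at 169 inside the M2 range of 146 to 180.

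Genes of transcription and the day cycle included 1 of the largest differences. NO09G02490, a homeodomain-like protein, a family of DNA-binding transcription factors, had 268, 302 and 303 in WT and 71.8, 82.6 and 95.7 in M2, with L of -1.79. It had 271, 244 and 163 in M1 and 178, 245 and 279 in M3, so that M1 replicate 3 and M3 replicate 1 were the next lowest libraries. NO02G04780, named circadian clock associated 1 after the Arabidopsis morning repressor, had 64.4, 64.3 and 62.4 in WT and 19.8, 18.4 and 23.3 in M2. It had 74.7, 73.8 and 44.2 in M1, 39.8, 52.9 and 52.7 in M3 and 69.2, 66.5 and 72.1 in M4. All M3 levels of this gene were below WT and all M4 levels above it.

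Signalling and cell division were represented by 4 described genes. NO30G00580, a Ca2+-regulated serine-threonine kinase, had 77.5, 98.7 and 87.6 in WT, 27.4, 25.5 and 31.5 in M2 and 117, 112 and 112 in M4. NO13G01660, named BRI1 suppressor 1-like, a phosphatase of brassinosteroid signalling in Arabidopsis, had 234, 245 and 243 in WT and 111, 117 and 136 in M2. NO11G02310, an Aurora kinase, which acts in mitosis, had 44.3, 41.1 and 47.6 in WT and 17.3, 19.8 and 24.1 in M2. NO16G00790, a homolog of WEE1, the kinase that delays entry into mitosis, had 25.8, 21.0 and 18.6 in WT and 9.0, 6.24 and 12.1 in M2. In NO16G00790 M3 replicate 1, at 10.3, lay within the M2 range, and the gene overlaps NO16G00780.

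Enzymes of lipid and carbon metabolism showed differences of a similar size. NO18G01550, a triglyceride lipase, which releases fatty acids from storage lipid, had 335, 312 and 336 in WT and 132, 146 and 165 in M2. NO20G00510, named lipase 1, had 83.2, 98.9 and 102 in WT and 44.1, 45.2 and 50.2 in M2. NO02G04110, named aconitase 2, which turns citrate into isocitrate, had 749, 756 and 769 in WT and 322, 323 and 339 in M2. It had 687, 631 and 530 in M1, so the M1 libraries were also below WT but above M2.

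NO04G04200 and NO04G04210 are neighbours on opposite strands of chromosome 4, both of the NAD(P)-binding Rossmann-fold superfamily of dehydrogenases. NO04G04210 had 296, 223 and 268 in WT, 345, 408 and 268 in M1, 101, 89.5 and 105 in M2 and 333, 361 and 342 in M4. Its L was 0.38 in M1 and 0.40 in M4, with M1 replicate 3 inside the WT range. NO04G04200 had 102, 69.7 and 82.1 in WT and 32.5, 38.5 and 41.1 in M2, with L of 0.28 in M1 and 0.31 in M4. NO15G00970, an oxidoreductase, had 889, 949 and 849 in WT and 393, 407 and 483 in M2. NO11G01610, named elicitor-activated gene 3-2, a member of the alcohol dehydrogenases in Arabidopsis, had 579, 741 and 674 in WT and 294, 288 and 371 in M2.

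The remaining described genes had varied names. NO04G00870 and NO05G00150 share a domain of unknown function, and had L of -1.55 and -1.35 in M2. NO26G01040, of the HCP-like superfamily, had 171, 141 and 160 in WT and 51.7, 53.5 and 58.2 in M2. The ankyrin repeat proteins NO04G01330 and NO29G01650 had L of -1.25 and -0.97. NO15G02690, of the Vps52 family, which tethers vesicles at the Golgi in yeast, had L of -1.12, and NO17G00600, a probable small nuclear ribonucleoprotein G of the spliceosome, had -1.05. NO10G00840, without a named function, had -1.11.

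Of the 165 genes, 35 carried a description and 130 did not. Several of the largest differences were among the latter. NO02G00590 (chromosome 2, 199656 to 204520) had 27.7, 40.0 and 32.9 in WT and 3.56, 2.95 and 3.30 in M2, with L of -3.02. M1 replicate 2, at 2.40, was as low as M2, while M1 replicates 1 and 3 had 33.3 and 46.6. NO05G03160 (chromosome 5) had 417, 453 and 488 in WT, 133, 134 and 162 in M2 and 527, 597 and 585 in M4. NO17G02310 and NO04G05210 had L of -1.72 and -1.63, with no M2 level above 8.25 and 15.7 and no WT level below 25.4 and 43.1.

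By WT level the first 5 genes of the set carried no description. NO14G02950 (chromosome 14, 870342 to 871002) had 4379, 5068 and 4160 in WT, 5271, 4409 and 3743 in M1, 1976, 2119 and 2419 in M2, 3722, 3804 and 3289 in M3, and 5105, 4326 and 4913 in M4. The M2 levels did not overlap those of any other group. NO12G02640 had 1488, 1673 and 1336 in WT and 1122, 503 and 522 in M2, so that M2 replicate 1 was above the lowest M4 level of 1074 and the lowest M1 level of 986. NO28G01700, NO04G01090 and NO04G03370 had L of -0.81, -1.29 and -0.87.

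Replicates within a group disagreed in part of the set. The highest of the 3 WT levels was at least 3 times the lowest in 10 of the 165 genes (6.06%), beside 5.47% of the 8151 genes and 18.2% of the 440 others low in M2. The share for M2 was 7.88%, beside 5.24% and 26.1%. NO16G03130, the gene with the lowest L, had 2.98, 31.2 and 33.3 in WT, 31.4, 1.15 and 19.1 in M1, 0.486, 0.988 and 0.696 in M2 and 29.5, 3.93 and 43.6 in M4. Its M2 libraries were all below the others, but 1 library each of WT, M1 and M4 was far below its group. NO16G02810 had 12.5, 16.8 and 131 in WT, 136, 14.1 and 13.8 in M1, 129, 15.3 and 11.6 in M3 and 17.7, 20.3 and 171 in M4, and M2 had 6.20, 8.88 and 8.83. Each of those groups had 1 library between 129 and 171 and the others between 11.6 and 20.3, and NO16G02810 overlaps NO16G02820 on chromosome 16.

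In 12 of the 165 genes the M2 and WT levels overlapped. NO13G03390 had 1.91, 14.4 and 15.0 in WT and 1.36, 3.30 and 1.39 in M2, and NO11G01020 had 31.8, 495 and 28.7 in WT and 93.6, 99.1 and 6.81 in M2. In the first gene 1 WT level lay within the range of M2, and in the second the WT mean rested on 1 library. The others were NO19G02520, NO06G04480, NO03G04130, NO16G02390, NO25G01870, NO13G02220, NO07G03960, NO20G01950, NO29G00350 and NO12G00410. NO12G00410, a DnaJ heat shock protein, a co-chaperone, had 325, 365 and 73.9 in WT and 121, 122 and 172 in M2.

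In 4 genes 1 library was listed at 0, which in a file without counts can be a failed estimate. NO07G00480 had 0, 7.51 and 29.3 in M2, NO20G01950 had 0, 2.72 and 25.9, NO29G00350 had 0, 39.5 and 0.004, and NO07G03690 had 53.1, 48.5 and 0. The WT levels of NO07G03690 were 56.4, 69.8 and 57.2, so its place in the set rested on M2 replicate 3 alone.

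**Figure D4:**
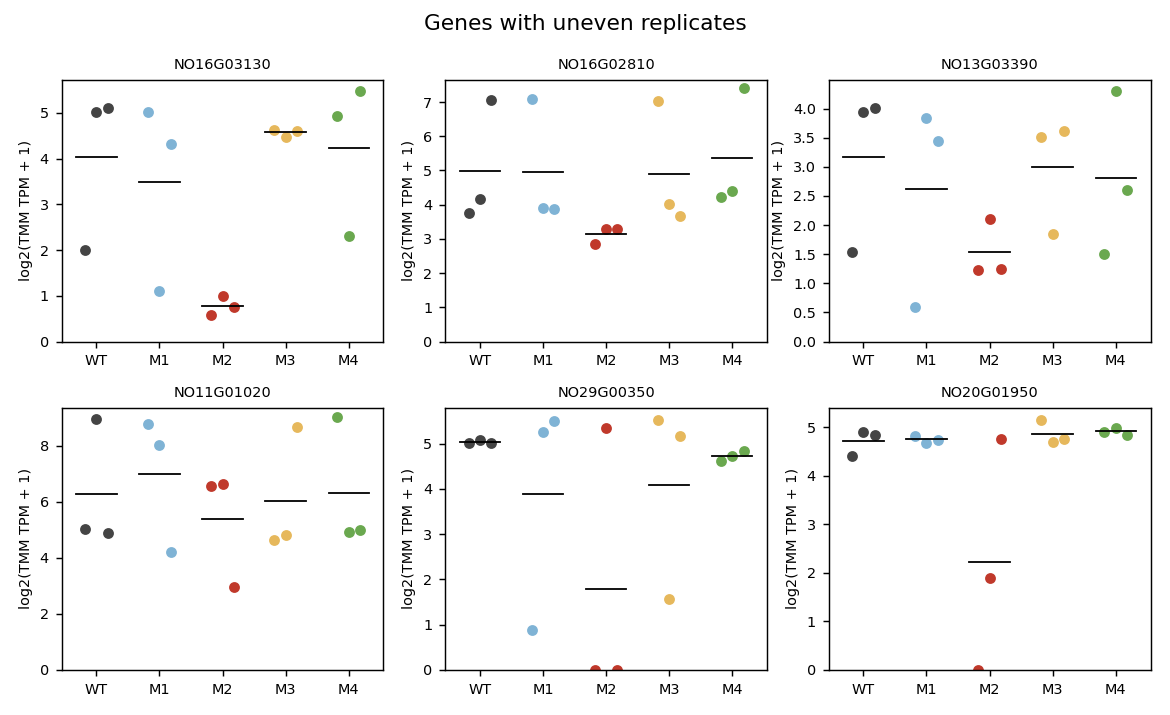
Log2 of the level plus 1 (vertical axes from 0) of 6 of the 165 genes in the 3 libraries (points) of each group, with the mean of the plotted values (bar). In NO16G02810 and NO11G01020 single libraries set the WT mean, with 131 and 495 beside 16.8 or less and 31.8 or less in the other WT libraries.

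The 165 genes lay on all 30 chromosomes. The share of the genes with a WT mean of 10 or more was highest on chromosome 23 (7 of 143, 4.90%) and chromosome 25 (7 of 162, 4.32%) and lowest on chromosome 18 (1 of 190, 0.526%). There were 31 genes in the outer 10% of their chromosomes (18.8%, beside 13.2% of the 8151). The 7 runs of neighbouring genes of the set held 15 genes. The longest run was NO04G02840, NO04G02850 and NO04G02860 on chromosome 4 (750544 to 753261), all on the plus strand. NO04G02840 had 118, 113 and 128 in WT and 55.8, 48.8 and 48.3 in M2, NO04G02850 had 48.4, 47.7 and 49.8 in WT and 24.9, 14.6 and 25.8 in M2, and NO04G02860 had 43.2, 46.3 and 62.4 in WT and 21.4, 20.4 and 30.2 in M2. The levels of the 3 neighbours differed, while their M2 means were 42.6%, 44.8% and 47.4% of WT.

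The other runs were pairs. NO14G01450 and NO14G01460 on the plus strand had L of -1.07 and -1.22, and NO20G00940 and NO20G00950 on the minus strand had -1.01 and -0.83. NO03G04280 and NO03G04290 lie on opposite strands and had -0.90 and -0.84. NO16G03140 next to NO16G03130 had -0.94, with steadier levels of 164, 110 and 118 in WT and 61.1, 68.7 and 73.8 in M2. Of the 251 genes next to a gene of the set that were not in it and had a WT mean of 10 or more, 13.5% were at -0.8 or lower in M2, beside 7.42% of the 8151. This was not tested, because neighbours can share reads.

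The genes of the set had a median length of 2709 bases, beside 2322 for the 8151 genes, and a median WT level of 87.9, beside 58.8. The 50 genes higher only in M2 had 2091.5 bases and a level of 25.4. The plus strand held 55.2% of the set and 49.9% of the 8151, and 19.4% of either overlapped another gene. No gene of the set overlapped another gene of the set.

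The set was also placed among related genes with 12 functional lists of 114 genes, which hold 27 of the 165. The lists were drawn from descriptions that the study gave to genes it picked from these libraries, so a direction in them is not independent evidence. Of the genes outside the set that were tested, 18.2% of all genes being called lower and 16.5% higher in M2 with limma, phosphate supply had 2 of 4 called lower and 2 called higher. NO06G00660, named SPX domain gene 1, a phosphate sensor, fell from a mean of 328 in WT to 103 in M2 (log2 change -1.66 ± 0.22 (SE), n = 3, adjusted p = 0.00018 by limma). NO04G04920, named for the response to phosphate deficiency, rose by 1.24 ± 0.17 (SE, limma adjusted p = 0.00023), from a mean of 6.06 in WT to 15.6 in M2. The other gene called higher, NO20G02530, had means of 0.944 in WT and 3.42 in M2. Both WT means were under the minimum of 10 used for the set. NO03G01310, named phosphate transporter 2, fell by 0.53 ± 0.10 (SE, limma adjusted p = 0.0018), and overlaps NO03G01320.

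Sulfur supply outside the set had 2 of 2 called higher, beside the low sulfate transporters of the set. NO08G00750, a mercaptopyruvate sulfurtransferase, rose by 1.23 ± 0.17 (SE, limma adjusted p = 0.00023), from a mean of 7.63 in WT to 19.0 in M2. NO09G03220, the other gene, had means of 1.28 in WT and 3.71 in M2. Both WT means were under the minimum of 10 used for the set. Both proton pumps outside the set were called lower. NO12G00390, also named H(+)-ATPase 2 and next to NO12G00380, fell by 4.41 ± 0.28 (SE, limma adjusted p = 2.7e-06) from a WT mean of 945. Its M1 mean was 438 (limma adjusted p = 0.053, and 536 with adjusted p = 0.11 without M1 replicate 3), and its L lay outside the limits in M1, M3 and M4, where NO12G00380 stayed within them. Reads of such close copies can be split between them by the counting, and their values are uncertain to that degree.

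Other transporters had 13 of 17 called lower and 1 higher, led by NO10G02520, named after a K+ outward rectifier, which fell by 2.30 ± 0.15 (SE, limma adjusted p = 2.8e-06). Redox defence had 5 of 6 lower and 1 higher. NO13G01830, an Fe superoxide dismutase, fell by 1.72 ± 0.17 (SE, limma adjusted p = 3.1e-05), and NO01G01360, a dehydroascorbate reductase, rose by 1.12 ± 0.12 (SE, limma adjusted p = 6.5e-05). Lipid enzymes had 4 of 9 lower and 1 higher. NO15G02830, a glycosyl transferase that the paper places in sulfolipid synthesis, fell by 4.39 ± 0.26 (SE, limma adjusted p = 1.9e-06). NO07G01720 and NO05G03760 carry the same Arabidopsis name, and their M2 means were 27.7% and 46.3% of the WT means.

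Cell division had 3 of 5 lower and 1 higher, kinases and signalling 4 of 11 lower and 4 higher, and transcription and clock 5 of 6 lower and 1 higher. NO01G04880, an aureochrome, a blue-light transcription factor of stramenopiles, fell by 2.92 ± 0.21 (SE, limma adjusted p = 4.9e-06) and also fell in M1 by 1.08 ± 0.21 (SE, limma adjusted p = 0.032). Without M1 replicate 3 that M1 call was lost (-0.84 ± 0.18, SE, limma adjusted p = 0.070). Oxidoreductases and carbon metabolism had 7 of 10 lower and 2 higher, and chaperones 7 of 10 lower. Nitrogen assimilation, which held 0 of the 165 genes, had 4 of 4 lower. Over the same genes outside the set, M1 had 0 to 4 called lower in each list (0 to 2 without M1 replicate 3). M3 had 0 to 2, and M4 had 0 to 2 except for the chaperones, where 5 of 10 were called lower. Genes not called in M1 could still be low there. In nitrogen assimilation, NO14G02460, NO14G02450, NO26G00710 and NO24G02300 had M1 means of 54.6%, 57.7%, 52.5% and 87.8% of WT. Their M2 means were 58.0%, 37.4%, 44.9% and 55.4% of WT. The plot by functional list shows the M2 values of the 165 genes beside those of the other genes.

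**Figure D5:**
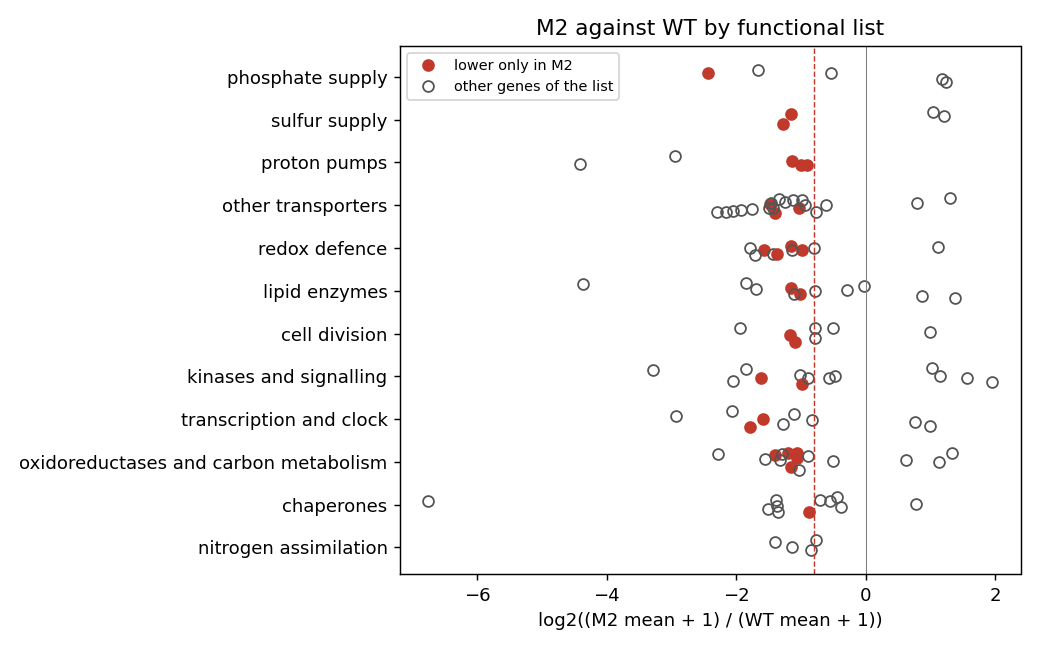
Log2 of the M2 mean plus 1 over the WT mean plus 1 (horizontal axis) for the genes of 12 functional lists (rows), with genes lower only in M2 (filled), other genes of the list (open) and the limit of -0.8 (dashed line). NO12G00390 at -4.41 among the proton pumps and NO05G02550 at -6.76 among the chaperones, which limma did not call (adjusted p = 0.40), lie further left than any filled point.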

How the data were processed

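The authors sequenced 15 RNA libraries as paired reads, ran the nf-core/rnaseq pipeline with STAR, and built a TMM-scaled matrix with Trinity. The deposited matrix holds a signal, TPM scaled across libraries. It equals the TPM that the authors deposited per library times 1 factor a library (0.947 to 1.05). The FPKM and coverage values that the authors deposited with it, made by StringTie (version not given in the sources used here), served only as a measure of depth. Without counts, the edgeR test of the study was not run and no counting error can be given.

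L used a pseudocount of 1. limma 3.58.1 (R 4.3.3) was fitted on log2(value + 1) over all libraries with 5 group means and a trend, for 9440 genes with a mean of at least 1, and a gene was called at a Benjamini-Hochberg adjusted p under 0.05. Such fold changes understate those of low genes. The study calls the replicates biological triplicates of 1 clone a line, so p-values cover the spread between cultures of that clone. The 165 genes were chosen on these contrasts, so no test of them is given. Members and lists were chosen with earlier results of these data known. Named genes were the described or listed members, the 10 lowest in M2, the 5 highest in WT, those next to the limit, in runs, at 0 or overlapping WT, and listed genes outside the set, all in 4 lists and the 3 largest in each other list. Alternatives changed the pseudocount, the WT minimum, the limits, the scaling, the mean, the filter, the fit and the libraries. Sequences are not shown, since no genome was used here.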

Additional observations from a re-analysis of the deposited data

Results flagged for a closer look

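In 21 of the 165 genes every M4 library lay above every WT library and every M3 library below, although both lines carried an edit of the same gene. The share was 12.7%, beside 2.55% of the 8151 genes and 16.1% of the 440 others low in M2. The difference between the lines was not tested. The largest gaps in L, M4 minus M3, were 0.75 in NO27G01490, 0.70 in NO05G03160, 0.68 in NO30G00580, 0.66 in NO25G01750, 0.62 in NO19G01720 and 0.61 in NO04G01090. NO10G02430, the stromal ascorbate peroxidase, had 0.59, and NO05G00110, NO10G01190, NO04G00870, NO04G03370, NO15G02690 and NO02G04780 had 0.52, 0.52, 0.52, 0.51, 0.51 and 0.51. NO04G01330 and NO26G01360 had 0.47, NO05G02630 and NO07G02280 had 0.46, NO04G00480 had 0.42 and NO20G01980 had 0.38. The smallest gaps were 0.31 in NO23G01070 and 0.28 in NO05G03180. Of the listed genes outside the set, NO16G02820, NO12G00390, NO08G00510 and NO07G01720 lay on opposite sides in the same way, with gaps of 0.95, 0.93, 0.69 and 0.62.

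In NO04G02840 and NO13G03460 every M1 library lay above every WT library, opposite to M2, with gaps in L, M1 minus M2, of 1.42 and 1.21. They were the only 2 of the 165 genes with M1 above WT in this way (1.21%), beside 9.26% of the 8151 genes. These differences were not tested either.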

How the results depend on the processing

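The set depended on its limits. It held 86 genes with a limit of -1 for M2 and 77 with limits of 0.3 for the other lines, 237 with limits of 0.5, 120 to 199 with 1 library left out (120 without WT replicate 1, 94 of them shared with the 165, and 199 without M2 replicate 3), 121 with StringTie TPM (112 shared) and 162 with group medians (108 shared). The medians of L over the 165 genes kept their sign under StringTie TPM and with each library left out, from -0.26 to -0.06 in M1, -1.07 to -0.917 in M2 (-0.917 with StringTie TPM), -0.21 to -0.13 in M3 and 0.0681 to 0.1438 in M4 (0.1391 with StringTie TPM).

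With StringTie TPM, M2 had 1333 genes called lower and 2048 higher, beside 1717 and 1554, and the median change of all tested genes moved from 0.00 to 0.09 on the log2 scale. Samples with the same number did not vary together (correlations of -0.0744 to 0.0868). A replicate block gave 1631 genes called lower and 1487 higher in M2, 40 lower in M1, beside 107, 8 in M3, beside 32, and 234 in M4, beside 348. Separate fits gave 10, 4 and 75 lower in M1, M3 and M4. With 1 library left out, the counts were 1371 to 1584 lower and 1166 to 1433 higher in M2, 19 to 168 lower in M1 (without M1 replicates 2 and 1), 5 to 76 in M3 (without WT replicates 2 and 1) and 63 to 311 in M4 (lowest without M4 replicate 2). The cause was not tested. Leaving out a line library and a WT library together was chosen after seeing the data. For the 38 listed genes outside the set, 292 of 304 values were on the same side of the threshold, 12 in 3 genes (NO13G01690, NO14G01370 and NO14G02450) were no longer past it, and 0 were reversed. Depth limits single values, whose counting error is unknown.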
